A study of Homo sapiens with 15 samples.

Results

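Described here are 10 genes, the amino acid and stress targets of ATF4, namely PHGDH, PSAT1, PSPH, SHMT2, MTHFD2, ALDH1L2, TRIB3, CHAC1, SESN2 and DDIT4. They were chosen by symbol as serine and one-carbon enzymes and stress genes under ATF4, leaving out amino acid transporters and tRNA synthetases. The rule itself used no measured value, but earlier results of these data were known when the genes were chosen. All 10 were found among the 59608 genes of the table. MDA-MB-231 cells, an established human line of triple-negative breast cancer, were grown in 2D culture and treated for 6 h with DMSO vehicle at 0.1% or with ZJ-101 at 0.5 nM, 5 nM, 50 nM or 500 nM. ZJ-101 is the small molecule whose effects on the transcriptome the study set out to measure. Each of the 5 groups holds 3 libraries from separate dishes of this 1 cell line, so the spread between them is that of dishes and not of donors. The same 3 DMSO libraries serve as control for all 4 doses, so the 4 comparisons with DMSO are not independent of each other.

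ATF4 is a transcription factor whose mRNA is translated more efficiently when the initiation factor eIF2 is phosphorylated, a state known as the integrated stress response that follows amino acid shortage, stress of the endoplasmic reticulum, haem shortage or double-stranded RNA. Because this control acts on translation, the ATF4 mRNA need not move when the ATF4 protein does, and its targets are commonly read in its place. PHGDH, PSAT1 and PSPH are the consecutive enzymes that make serine from a glycolytic intermediate. SHMT2, MTHFD2 and ALDH1L2 are mitochondrial enzymes that take a carbon unit from serine and carry it through folate. TRIB3 is a pseudokinase that feeds back on ATF4, CHAC1 breaks down glutathione, and SESN2 and DDIT4 both restrain the growth kinase complex mTORC1, SESN2 through leucine sensing and DDIT4 through the TSC complex.

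Of these genes 1 passed the test. DDIT4 fell to 0.711 times its DMSO level at 50 and 500 nM ZJ-101. Of all tested genes, 3.71% were called lower at 50 nM and 10.1% at 500 nM. None of the 10 genes was called higher at any dose. The 6 serine and one-carbon enzymes, TRIB3, CHAC1 and SESN2 passed the test at no dose.

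The promoters of CHAC1 and DDIT4 are printed because CHAC1 holds the sequence that ATF4 is known to bind and DDIT4 is the gene that fell. RefSeq promoter windows were matched for 7 of the 10 genes. SHMT2, PSPH and ALDH1L2 had none in the table used here. Each sequence below is the 250 bases before the transcription start on GRCh38.p14, forward strand. Capitals mark the core of the C/EBP-ATF response element, searched as TGATGNAA on both strands.
CHAC1 (chr15:40953221-40953470): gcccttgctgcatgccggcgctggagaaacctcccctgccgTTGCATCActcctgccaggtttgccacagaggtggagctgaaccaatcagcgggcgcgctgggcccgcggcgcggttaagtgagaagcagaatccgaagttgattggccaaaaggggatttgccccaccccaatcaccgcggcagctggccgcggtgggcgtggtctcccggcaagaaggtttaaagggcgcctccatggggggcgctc
DDIT4 (chr10:72273674-72273923): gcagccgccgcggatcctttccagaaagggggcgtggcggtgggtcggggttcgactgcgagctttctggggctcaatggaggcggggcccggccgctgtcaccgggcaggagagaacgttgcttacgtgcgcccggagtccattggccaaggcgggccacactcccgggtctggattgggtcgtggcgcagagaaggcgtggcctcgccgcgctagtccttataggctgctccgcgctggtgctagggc
The element of CHAC1 lies on the reverse strand, from 209 to 202 bases before the start, and reads TTGCATCA on the strand printed. The search covered 250 bases before and 50 bases after each start. It found the element in 3.62% of the 35116 RefSeq windows and in 1 of the 7 matched genes, which have 9 windows. The absence of these letters from the other windows describes only the bases searched. GC content was 64.8% in the CHAC1 window and 68.8% in that of DDIT4, with a median of 58% over all windows.

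Between 12415519 and 15284762 reads on genes were recovered per library (median 13320354), and 13561 genes whose mean reached 10 normalized counts were tested, among them all 10 genes described here. A normalized count is a read count divided by the library's size factor. Values were compared as log2(normalized count + 1) with limma and Benjamini-Hochberg adjustment over all tested genes, with a threshold of 0.05 on the adjusted p. Scaled counts measure a gene relative to the other mRNA of its library, so neither the number of cells nor the total mRNA per cell can be read from them. The mesenchymal markers VIM (13433 to 18413 normalized counts), CD44, AXL, MSN and CAV1 were abundant in every library. ESR1 was at most 4.30, PTPRC at most 3.53 and ALB at most 1.77, while PGR reached 17.3, CDH1 lay between 107 and 206 and PECAM1 between 201 and 321 normalized counts.

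Basal levels were compared per kilobase of the canonical transcript, in normalized counts per kb over the 3 DMSO libraries. SHMT2 was the most abundant of the genes at 1497 ± 36.2 (SD, n = 3), above 94.98% of the 12719 tested genes with a transcript length. PSAT1 followed at 754 ± 16.5 and DDIT4 at 676 ± 46.9, which places both among the well expressed genes of this line. PSPH (189 ± 11.2), TRIB3 (161 ± 14.8), PHGDH (158 ± 9.34) and MTHFD2 (139 ± 1.88) lay in the middle of the distribution, above 53.0% to 60.9% of genes. Within this middle group the range of MTHFD2 lay below those of PSPH, TRIB3 and PHGDH. The ranges of PSPH and TRIB3 overlapped, and so did those of TRIB3 and PHGDH. CHAC1 at 50.4 ± 1.65 and SESN2 at 49.9 ± 2.89 did not differ beyond their spread. ALDH1L2, at 1.87 ± 0.294 per kb, was detected with only 5 to 20 reads in a library and is close to the limit of what this depth can measure.

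**Figure D1:**
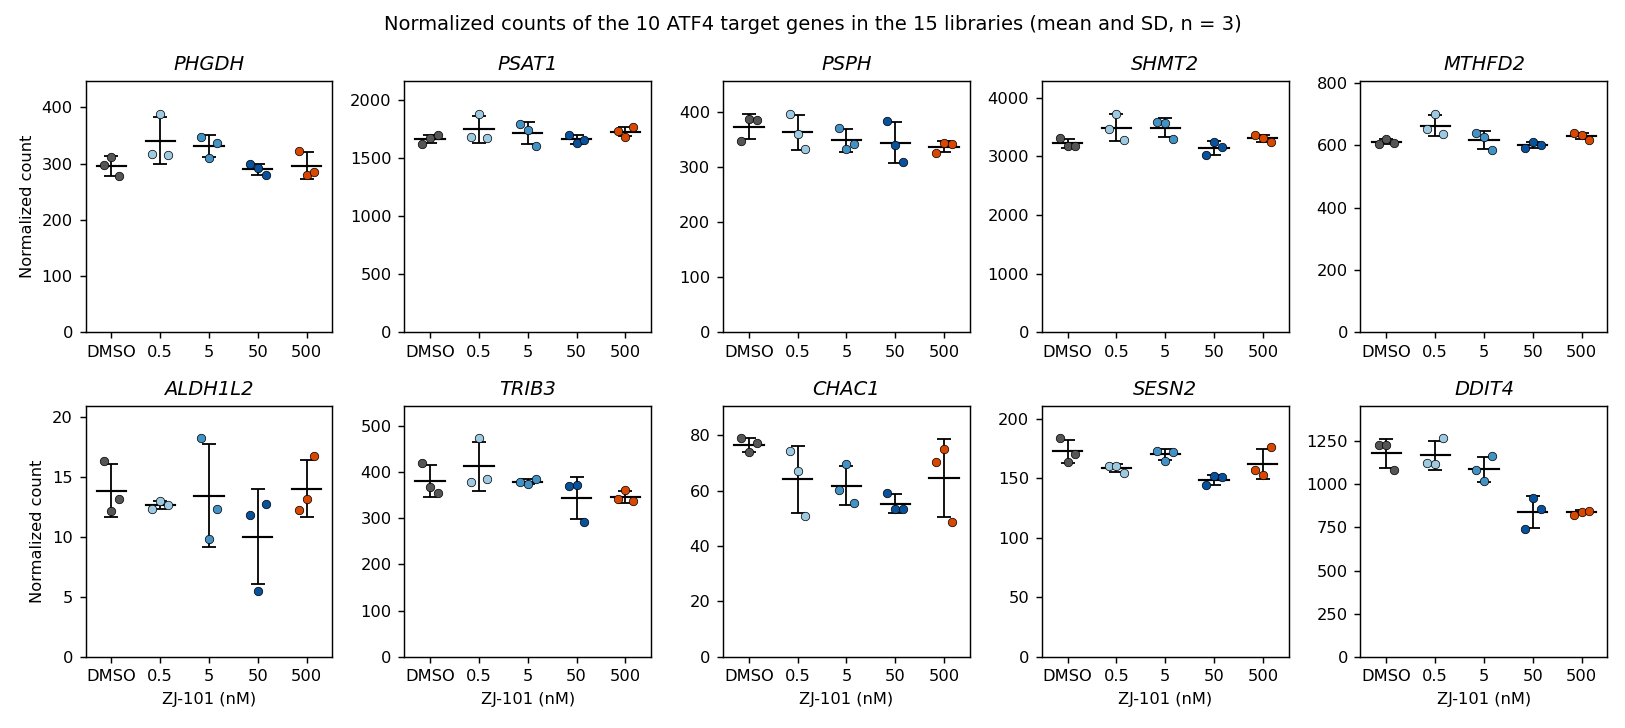
Normalized counts of the 10 ATF4 targets in each of the 15 libraries, by group from DMSO to 500 nM ZJ-101, with 1 panel per gene, points for the libraries and a bar for the group mean. DDIT4 steps from 1019 to 1266 in the DMSO, 0.5 and 5 nM libraries down to 738 to 922 at 50 and 500 nM. CHAC1 at 50 nM (53.2 to 59.1) also lies below DMSO (73.8 to 78.8). So does SESN2 at 50 nM (144 to 152 against 164 to 184), and neither passed the test. Most other groups overlap those of DMSO.

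DDIT4 (chr10:72273919-72276036, forward strand, GRCh38) encodes REDD1, an inhibitor of mTORC1 that many stresses induce. Its normalized counts in DMSO were 1227, 1225 and 1085. At 0.5 nM they were 1122, 1115 and 1266, and at 5 nM 1081, 1019 and 1162. These 9 libraries overlapped. At 50 nM the counts were 738, 922 and 858, and at 500 nM 825, 839 and 847. All 6 libraries of the upper doses lay below all 9 of DMSO and the lower doses. The mean went from 1179 ± 81.8 (SD, n = 3) in DMSO to 840 ± 93.5 at 50 nM and 837 ± 11.4 at 500 nM.

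Against DMSO, the log2 fold change of DDIT4 was -0.01 at 0.5 nM (adjusted p = 0.96, limma) and -0.12 at 5 nM (adjusted p = 0.57), neither past the threshold. It was -0.49 at 50 nM (SE 0.08, adjusted p = 2.7e-04) and -0.49 at 500 nM (SE 0.08, adjusted p = 1.3e-04). The interval at 500 nM, -0.65 to -0.33, corresponds to 0.637 to 0.795 times the DMSO level. The fall lay between 5 and 50 nM, where the step was -0.38 (adjusted p = 0.0053, limma). From 50 to 500 nM the step was 0.00 with an interval of -0.16 to 0.16 and an adjusted p of 1.0, so a further change beyond these bounds was not seen. Across the ordered doses the fitted slope was -0.15 per step (adjusted p = 4.5e-05, limma). By p, DDIT4 was at place 222 of the 13561 tested genes at 50 nM and 497 at 500 nM.

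The genes whose dose pattern was most like that of DDIT4 were sought among those past the threshold at 500 nM, by the root mean square difference in log2 fold change over the 4 doses. LTBP4, which encodes a binding protein of latent TGF-beta, was the closest at 0.024. Its log2 fold changes were 0.01, -0.12, -0.46 and -0.47 from 0.5 to 500 nM. MESD, a chaperone for LDL receptor family proteins, followed at 0.031 with -0.04, -0.16, -0.46 and -0.49. This likeness is a description over 4 doses that share their control libraries.

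Among the 4 stress genes, CHAC1 and SESN2 were also low at 50 nM but did not pass the test. CHAC1 (chr15:40952962-40956512) encodes a gamma-glutamyl cyclotransferase that degrades glutathione and is a sensitive readout of ATF4 in many cells. Its normalized counts were 78.8, 73.8 and 77.1 in DMSO, 74.2, 67.1 and 50.8 at 0.5 nM and 60.2, 69.5 and 55.6 at 5 nM. They were 59.1, 53.5 and 53.2 at 50 nM and 70.3, 74.8 and 48.6 at 500 nM. The libraries at 5 and 50 nM lay below all DMSO libraries, and at 500 nM replicate 2 overlapped them. The log2 fold change was -0.46 at 50 nM (interval -0.82 to -0.11, adjusted p = 0.13, limma) and -0.27 at 500 nM (interval -0.62 to 0.09, adjusted p = 0.33). The value at 500 nM rested on replicate 3, without which it was -0.08 (adjusted p = 0.83). CHAC1 was measured with 49 to 82 reads per library, and its spread between replicates was 0.21 on the log2 scale, the second widest of the 10 genes.

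SESN2 (chr1:28259518-28282491), the leucine-binding sestrin that holds mTORC1 inactive, had 184, 164 and 170 normalized counts in DMSO and 144, 152 and 151 at 50 nM, where the groups were apart. At 500 nM it had 157, 153 and 177, and the groups overlapped. Its log2 fold change was -0.21 at 50 nM (adjusted p = 0.19, limma) and -0.09 at 500 nM (interval -0.27 to 0.09, adjusted p = 0.53). TRIB3 (chr20:362835-397559) had 420, 367 and 354 normalized counts in DMSO, 369, 372 and 291 at 50 nM and 340, 360 and 337 at 500 nM. These groups overlapped. Its log2 fold change was -0.15 at 50 nM (adjusted p = 0.49, limma) and -0.13 at 500 nM (adjusted p = 0.40), short of the threshold at both doses. It was -0.03 at 50 nM without replicate 3 of that dose and -0.08 without DMSO replicate 1, and -0.06 at 500 nM without DMSO replicate 1.

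None of the 3 enzymes that make serine passed the test at any dose. PHGDH (chr1:119648411-119744218), which commits the glycolytic intermediate to serine, averaged 295 ± 17.4 normalized counts in DMSO, 340 ± 41.8 at 0.5 nM, 331 ± 19.2 at 5 nM, 290 ± 9.57 at 50 nM and 296 ± 23.4 at 500 nM (SD, n = 3). Its libraries at 0.5 nM (316, 388 and 316) were all above those of DMSO (298, 312 and 277), and its log2 fold change there was 0.20 (adjusted p = 0.30, limma). At 500 nM the log2 fold change was 0.00 with an interval of -0.18 to 0.19. PSAT1 (chr9:78297125-78330093), the aminotransferase of the next step, ranged only between group means of 1662 and 1746, with an interval of -0.05 to 0.16 at 500 nM. PSPH (chr7:56011051-56051604, reverse strand), the phosphatase that releases serine, had 348, 388 and 385 normalized counts in DMSO and 325, 343 and 342 at 500 nM. These 2 groups of PSPH did not overlap, and the log2 fold change of -0.15 did not pass (interval -0.33 to 0.03, adjusted p = 0.27, limma).

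The mitochondrial one-carbon enzymes SHMT2 and MTHFD2 were among the most evenly measured of the genes, and ALDH1L2 the least. SHMT2 (chr12:57229573-57234935), which splits serine into glycine and a one-carbon unit, had 3318, 3187 and 3180 normalized counts in DMSO and 3362, 3314 and 3249 at 500 nM, a log2 fold change of 0.04 with an interval of -0.07 to 0.14. Its group means were 3492 ± 226 at 0.5 nM and 3488 ± 162 at 5 nM against 3145 ± 118 at 50 nM. The step from 5 to 50 nM was -0.15 and did not pass (adjusted p = 0.10, limma). MTHFD2 (chr2:74186172-74217565), a folate dehydrogenase abundant in proliferating cells, had 604, 620 and 608 in DMSO and 638, 633 and 618 at 500 nM, with a log2 fold change of 0.04 and an interval of -0.07 to 0.16. Its 3 libraries at 0.5 nM (651, 701 and 637) were above those of DMSO, and the difference on the log2 scale was 0.12 (adjusted p = 0.32, limma). For ALDH1L2 (chr12:105019784-105107643, reverse strand), which oxidises formyl-folate and yields NADPH, the interval at 500 nM ran from 0.641 to 1.59 times the DMSO level, so only a large change could have been seen. Whether the counting used the strand is not stated, and 14.1% of the exon bases of MTHFD2, 8.38% of SHMT2 and 2.91% of ALDH1L2 overlap antisense genes, whose reads might not be told apart. PSAT1 has a pseudogene copy, PSAT1P3, that covers 50.5% of its transcript at 95.2% identity and had 0 counts in all libraries.

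**Figure D2:**
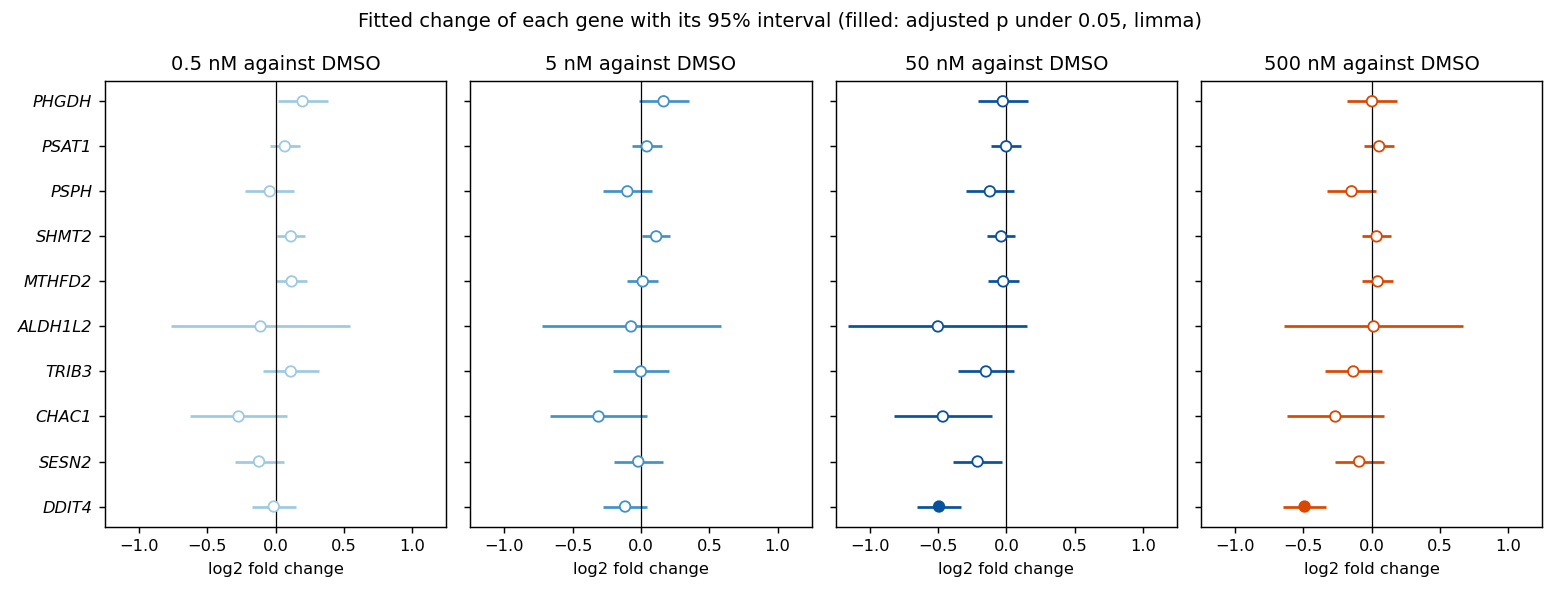
Log2 fold change against DMSO of each of the 10 genes at 0.5, 5, 50 and 500 nM ZJ-101 on log2(normalized count + 1), with 95% intervals from limma. The intervals of DDIT4 at 50 and 500 nM lie wholly below 0 at about -0.49 and are the only ones past the threshold, and ALDH1L2 has the widest intervals.

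By dose, 0 of the 10 genes passed the threshold at 0.5 nM, where 1.17% of all tested genes did. At an unadjusted p under 0.05 there were 3, namely PHGDH, SHMT2 and MTHFD2, all higher, where 14.7% of all genes had such a p in either direction. At 5 nM, 0 passed against 2.18% of all genes, and 1 (SHMT2, higher) had an unadjusted p under 0.05 (12.9% of all genes). At 50 nM, DDIT4 was lower, which is 1 of 10 where 3.71% of all genes were called lower, and 0 were higher (2.29%). The genes at an unadjusted p under 0.05 there were CHAC1, SESN2 and DDIT4 (17.4% of all genes). At 500 nM, DDIT4 was again the 1 gene called lower, against 10.1% of all genes, and 0 were called higher, against 7.69%. DDIT4 was also the 1 gene at an unadjusted p under 0.05 at 500 nM (29.3% of all genes). edgeR and DESeq2 on the recovered reads gave the same counts of calls at each dose, 0 higher at all 4 and 1 lower at 50 and 500 nM. The share of genes called at 500 nM is thus close to that of all genes, and 1 call in 10 is no more than the background.

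Some of the genes had libraries that did not overlap those of DMSO. At 0.5 nM, PHGDH and MTHFD2 were higher in all 3 libraries (7.43% of all genes were) and SESN2 was lower (10.7%). At 5 nM, CHAC1 was lower (12.7%) and 0 genes were higher (10.5%). At 50 nM, CHAC1, SESN2 and DDIT4 were lower (13.2%) and 0 were higher (11.6%). At 500 nM, PSPH and DDIT4 were lower (19.6%) and 0 were higher (18.9%).

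The fitted changes of the 10 genes against DMSO were mixed in sign at 0.5, 5 and 500 nM and all below 0 at 50 nM. The median log2 fold change of the 10 genes was 0.03 at 0.5 nM, -0.01 at 5 nM, -0.14 at 50 nM and -0.04 at 500 nM, beside medians of -0.01, 0.00, 0.00 and 0.00 over all tested genes. The median at 50 nM rested on 1 library, since without 50 nM replicate 3 it was -0.04. The medians at the other doses were near 0 and moved between -0.10 and 0.06 with 1 library left out. At 50 nM, 10 of 10 fitted values were below 0, from -0.50 for ALDH1L2 to 0.00 for PSAT1, where 50.8% of all tested genes were below 0. With 1 library left out, 8 to 10 were below 0. The value of ALDH1L2 came from replicate 2, with 5 reads, and was -0.15 without that library. The 4 stress genes had a median of -0.34 there and the 6 enzymes -0.03. From 0.5 to 5 nM, 0 of the 10 genes passed (0.118% of all genes did), with 0 at an unadjusted p under 0.05 (7.96% of all genes). From 5 to 50 nM, DDIT4 was the 1 gene called lower (2.39% of all genes were), and PHGDH, SHMT2 and SESN2 also had an unadjusted p under 0.05, as 17.6% of all genes did in either direction. All 10 fitted values of this step were below 0 (50.1% of all genes were), with a median of -0.15. From 50 to 500 nM, 0 passed (2.28%) with 0 at an unadjusted p under 0.05 (13.1% of all genes). Of the fitted values of this step, 9 of 10 were above 0, where 48.8% of all genes were below 0. The steps into and out of 50 nM share the libraries of that dose, so their directions are not independent. By the slope on the dose rank, DDIT4 was the 1 gene called (17.6% of all genes were). Below 0 were 9 of 10 slopes (50.0% of all genes), with TRIB3 next at -0.05 per step (adjusted p = 0.12, limma). For each of these comparisons edgeR and DESeq2 gave the same counts.

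Replicate 2 at 0.5 nM stood apart over all tested genes, and for these genes as well. It held the highest value of all 15 libraries for 5 of the 10 genes (PHGDH, PSAT1, SHMT2, MTHFD2 and TRIB3), and 8 of the 10 were above their group mean in it. The same counts were not taken over all tested genes, so they cannot be called particular to these genes. Over all tested genes its median absolute deviation from the group mean was 0.109 on the log2 scale, against 0.0456 to 0.0829 in the other libraries. Without it, the log2 fold change at 0.5 nM was 0.10 instead of 0.20 for PHGDH, 0.06 instead of 0.11 for SHMT2, 0.08 instead of 0.12 for MTHFD2 and 0.01 instead of 0.11 for TRIB3. None of the 10 genes passed at 0.5 nM with or without it. It also enters the shared estimate of the spread: without it the step of SHMT2 from 5 to 50 nM, -0.15, passed the threshold (adjusted p = 0.027, limma).

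**Figure D3:**
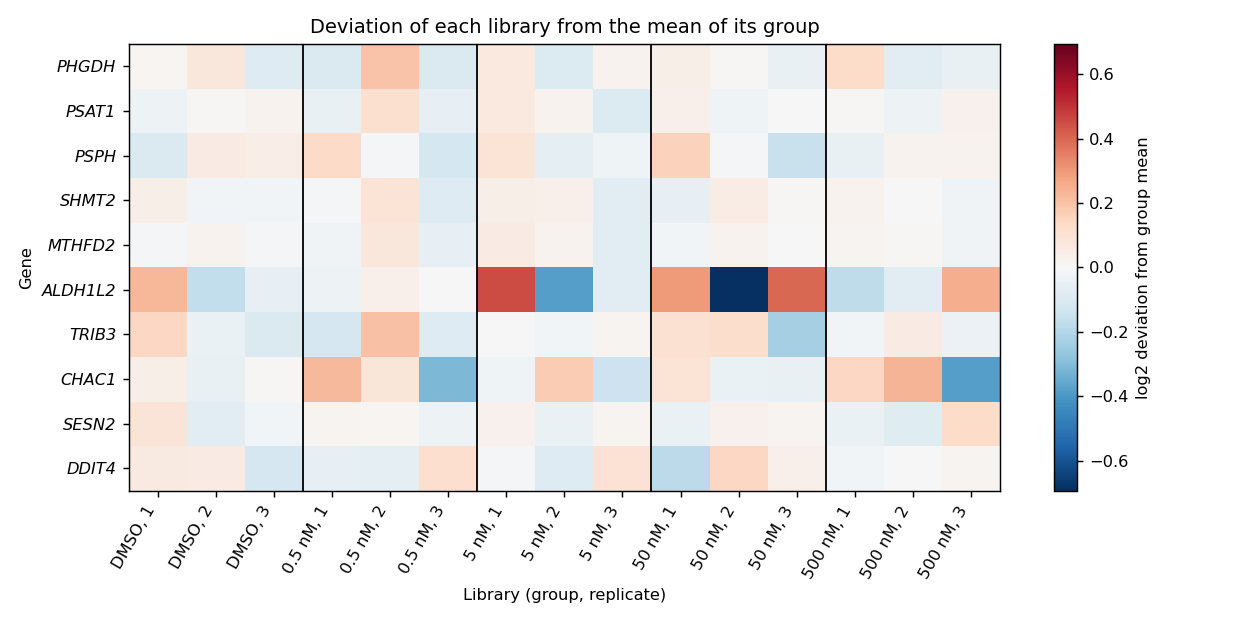
Deviation of each of the 10 genes (rows) from its group mean in each of the 15 libraries (columns), as colour on the log2 scale. In replicate 2 at 0.5 nM 8 of the 10 genes lie above their group mean, and the strongest colours belong to the low-count genes ALDH1L2 and CHAC1.

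The mRNAs of ATF4 and of other genes of the integrated stress response were read beside those of the targets. ATF4 itself averaged 3694 ± 144 normalized counts in DMSO, 3817 ± 291 at 0.5 nM, 3704 ± 142 at 5 nM, 3550 ± 123 at 50 nM and 3683 ± 20.1 at 500 nM (SD, n = 3), with a log2 fold change of 0.00 at 500 nM (interval -0.11 to 0.10, adjusted p = 0.97, limma). DDIT3, which encodes the stress factor CHOP, went from 56.2 ± 8.94 to 68.5 ± 2.63 at 500 nM, a log2 fold change of 0.29 that did not pass (adjusted p = 0.30). Among 14 genes of the core of the integrated stress response, 2 were higher and 3 lower at 500 nM, with a median of 0.06. Over all tested genes, 7.69% were called higher and 10.1% lower at this dose. PPP1R15A, which directs a phosphatase to eIF2, rose by 0.32 (adjusted p = 0.0022), and the double-stranded RNA kinase EIF2AK2 rose by 0.33 (adjusted p = 0.0016). CEBPB, a bZIP factor that dimerises with ATF4, fell by 0.72 (adjusted p = 1.1e-05), from 2363 ± 86.0 to 1439 ± 183 normalized counts. The endoplasmic reticulum kinase EIF2AK3 fell by 0.43 (adjusted p = 5.5e-04), and CEBPG fell by 0.16 (adjusted p = 0.042), a call that did not hold under 10 of 25 alternatives, 8 of them the omission of 1 library (highest adjusted p 0.16 without 500 nM replicate 2).

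Other targets of ATF4 did not move together. Of 8 amino acid transporters, 5 were higher and 1 lower at 500 nM, with a median of 0.35. The shares of all tested genes called at this dose were 7.69% higher and 10.1% lower. SLC3A2, the heavy chain of the heteromeric transporters, rose by 2.08 on the log2 scale (adjusted p = 1.8e-13, limma), SLC7A5 by 0.62 and SLC7A11 by 0.43, while SLC38A2 fell by 0.18. Of 12 cytosolic tRNA synthetases, 0 passed in either direction at 500 nM by limma. Their median was 0.06, and 2 had an unadjusted p under 0.05, as 29.3% of all genes did. edgeR called 0 of the synthetases and DESeq2 called 1 higher. Of 14 tested among 18 other targets, 1 was higher, the autophagy receptor SQSTM1 at 0.29 (adjusted p = 2.0e-04), and 2 were lower, VLDLR at -0.83 (adjusted p = 7.8e-06) and KLHL24 at -0.78 (adjusted p = 9.4e-06). ASNS, the asparagine synthetase that is a standard target of ATF4, had a mean of 6.35 normalized counts, below the limit for testing. The check for overlapping and near-identical genes covered only the 10 genes. Whether reads of ASNS were lost in counting was therefore not tested, and its low count need not be its expression. The median of the 4 stress genes at 500 nM was -0.20 and that of the 6 serine and one-carbon enzymes 0.02, beside 0.00 over all tested genes. The median of the stress genes lies between CHAC1 (-0.27) and TRIB3 (-0.13). Neither of these passed, and each was nearer 0 with 1 library left out.

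The genes that work beside these enzymes and stress proteins were read from 4 further lists at 500 nM. Of all tested genes, 7.69% were called higher and 10.1% lower there. Of 14 tested among 19 other serine, glycine and folate enzymes and carriers, ATIC was higher by 0.15 (adjusted p = 0.035, limma) and SFXN3 lower by 0.21 (adjusted p = 0.023) at 500 nM, and both calls were fragile. ATIC did not pass without any 1 of the DMSO or 500 nM libraries (adjusted p up to 0.15), nor SFXN3 without DMSO replicate 1 or 3 or 500 nM replicate 1 (up to 0.12). Among 8 tested paralogs of the 10 genes, TRIB2 fell by 0.48 (adjusted p = 1.9e-04) and TRIB1 by 0.44 (adjusted p = 0.0015), where TRIB3 did not pass. The median of these paralogs was -0.10. Whether TRIB3 differed from them was not tested. Of 19 tested genes of mTORC1 and its regulators, the complex that SESN2 and DDIT4 restrain, 1 was higher and 2 were lower, with a median of 0.01. NPRL3, a part of the GATOR1 inhibitor, rose by 0.31 (adjusted p = 7.5e-04), the arginine sensor CASTOR2 fell by 0.68 (adjusted p = 6.9e-04) and the GTPase RRAGA fell by 0.14 (adjusted p = 0.047), the last a call lost under 14 of 25 alternatives, 10 of them the omission of 1 library (highest adjusted p 0.22 without 500 nM replicate 2). Of 9 glutathione enzymes, the pathway on which CHAC1 acts, 0 passed in either direction by limma, edgeR or DESeq2. Their median was -0.05, and 2 had an unadjusted p under 0.05 by limma, as 29.3% of all genes did.

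**Figure D4:**
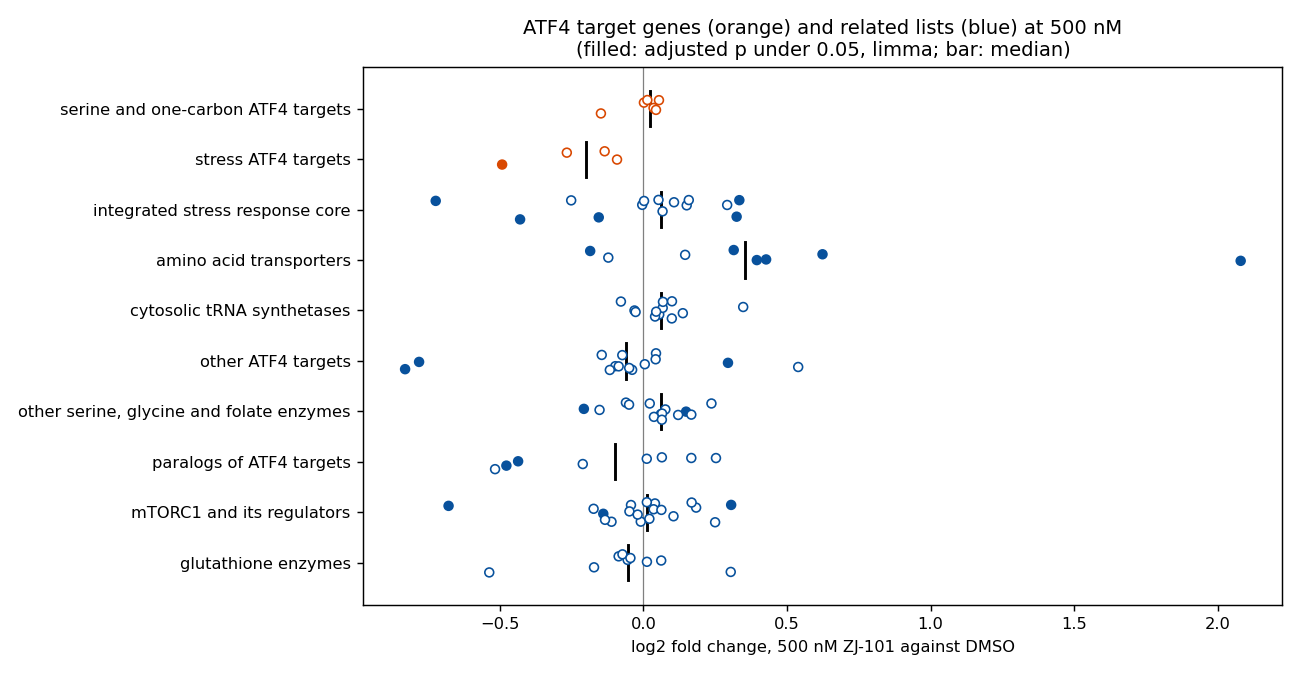
Log2 fold change at 500 nM ZJ-101 against DMSO of every tested gene in each list, 1 row per list, with a mark for the median and filled points for genes past the threshold by limma. The amino acid transporters reach 2.08 for SLC3A2, while the serine and one-carbon enzymes lie near 0 and DDIT4 is the filled point among the stress genes.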

How the data were processed

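Poly-A RNA of MDA-MB-231 cells was sequenced by the authors in 15 libraries, 3 per group. According to the submitters' processing notes and the study's methods, the authors used HISAT2 for alignment of the paired reads to hg38, HTSeq for counting and DESeq2 for scaling. The deposited values are signal values, namely counts divided by size factors (0.916 to 1.13). The methods name GENCODE as the annotation, in the release current at the time. The release number, the tool versions and the strand setting are not given in the sources used here. Whole reads were recovered from the step size of each library, for 100% of values within 0.001. 1 line without a gene was left out. Mitochondrial genes took 0.889% to 2.06% of reads. Chi-square per degree of freedom between 2 replicates was 2.04 to 16.6, so no library was counted as a duplicate.

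The main test was limma (lmFit and eBayes with trend) on log2(normalized count + 1) in 1 fit of the 5 groups, for genes with a mean of at least 10. Each dose was compared with DMSO and with the next dose, and a slope was fitted on the rank of the dose. Intervals are at 95%. Named were the 10 genes, ATF4, DDIT3, up to 3 rises and 3 falls past the threshold at 500 nM in each list, and for each of the 10 genes past the threshold there the 2 most alike. ASNS and PSAT1P3 were named after their values were seen. The lists were the integrated stress response core, amino acid transporters, cytosolic tRNA synthetases, other ATF4 targets, other serine, glycine and folate enzymes, paralogs, mTORC1 and its regulators, and glutathione enzymes. The paralogs share SHMT1, MTHFD2L and ALDH1L1 with the folate list. The genes and lists were chosen with earlier results of these data known. The tests were tried on simulated data first.

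Alternatives were pseudocounts of 0.5 and 5, no filter or a mean of at least 50, TMM scaling, equal library totals, the replicate number as a block, DESeq2 and edgeR (quasi-likelihood) on the recovered reads, a fit of only the 6 libraries that a dose and DMSO have, the slope over the 12 treated libraries and each library left out. Positions are from GENCODE 44 on GRCh38, and promoter sequences from RefSeq. A near-identical gene covers at least 50% of a transcript at 95% identity (minimap2 2.31-r1302). Python 3.11.15 and R 4.3.3 were used with DESeq2 1.42.0, edgeR 4.0.16 and limma 3.58.1.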

Additional observations from a re-analysis of the deposited data

How the results depend on the processing

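DDIT4 stayed past the threshold at 50 and 500 nM under all 25 alternatives, with adjusted p between 1.1e-07 and 0.0032 at 50 nM and up to 0.0015 at 500 nM. Of the 10 genes, 1 was lower from 5 to 50 nM, and with each library left out in turn this count ranged from 1 to 2, the second being SHMT2 without 0.5 nM replicate 2. The other counts of the 10 genes past the threshold, at each dose, between neighbouring doses and by the slope, did not move. No called value changed sign, and 53 values changed sign where neither setting passed. ALDH1L2 could not be tested with a mean of at least 50, and DESeq2 gave it no adjusted p. DESeq2 also gave none for CHAC1 at 0.5 nM and from 50 to 500 nM, so its counts there leave out both genes.

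With the replicate block, DDIT4 at 50 nM was -0.49 (adjusted p = 3.7e-04, limma) and DDIT4 at 500 nM was -0.49 (adjusted p = 1.6e-04), and the counts of calls among the 10 genes were the same. Libraries of the same number did not deviate together. Over 30 such pairs the correlations ran from -0.0855 to 0.0961, 0 of them over 0.1, and 7 of 15 libraries were closest to their own number.

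At 500 nM, DESeq2 called 1 tRNA synthetase higher against 0 and 2 folate genes higher against 1, edgeR called 1 paralog higher against 0, both called 1 mTORC1 gene lower against 2, and DESeq2 called 2 genes of the integrated stress response core lower against 3, without CEBPG. Depth limits ALDH1L2 (5 to 20 reads) and CHAC1 (49 to 82 reads) most.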
